A study of Mus musculus with 10 samples.

Results

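The genes of the constitutive proteasome were examined in the livers of 10 mice. Members were taken by symbol: every mouse gene in RefSeq whose symbol starts with Psma, Psmb, Psmc, Psmd or Psme and a digit, without the immunoproteasome genes Psmb8, Psmb9 and Psmb10. The rule found 49 genes, of which 43 are protein coding and 6 are pseudogenes. Of these, 42 had a probe on the array through a matching RefSeq accession, among 21613 named genes with a probe. After the filter on dim probes 39 of the 42 could be tested, out of 14531 named genes and 22184 features in all. Psme2 and the 6 pseudogenes had no matched probe. The rule also takes in 2 genes that are not proteasome subunits: Psmc3ip, a factor of meiotic recombination, and Psme3ip1, a partner of the activator PA28 gamma.

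All mice were males of the strain TG221, which carries a transgene for the microRNA miR-221, on a B6D2F2 background. The labels do not name the promoter of the transgene. Carbon tetrachloride (CCl4), which injures hepatocytes and leads to fibrosis, was given by gavage to every mouse at 20% (v/v) in olive oil, 3 times a week for 14 weeks, starting at an age of 4 to 6 weeks. The 6 mice of the metformin plus CCl4 group also had oral metformin each day at 300 mg/kg, beginning 3 weeks into the CCl4 course, and the 4 mice of the CCl4 group had none. Livers were taken at 24 weeks, and the labels name both liver and hepatocellular carcinoma as the tissue. The series has no mice without CCl4 or without the transgene. Each liver was hybridised to 1 Agilent 1-colour array. Levels are given here as log2 of the processed spot intensity minus the 75th percentile of that array, and a difference is the metformin plus CCl4 mean minus the CCl4 mean on that scale. A gene is called higher or lower where the adjusted p in limma is below 0.05 over all features tested. The levels of single genes were not compared with each other. Levels of different probes were set together in medians and sums over sets of genes, and to pick the brightest probe of a gene.

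The proteasome degrades proteins that carry ubiquitin chains. Its 20S core is a barrel of stacked rings, in which the outer alpha rings form the gate and the inner beta rings hold the proteolytic sites. The 19S cap binds the core: its base of ATPases and scaffold subunits unfolds the substrate and its lid removes the ubiquitin. Chaperones assemble both parts, other activators can replace the cap, and in mammals the transcription factor NRF1, the product of Nfe2l1, raises the subunit genes when the proteasome is impaired.

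The 2 groups lay on 2 slides with a scan each, so slide and metformin cannot be told apart. Within the metformin group, mice 1 and 2 lay on the first row of the slide and mice 3 to 6 on the second, whereas the 4 CCl4 mice all lay on the first row. The 75th percentile of the intensity was 363 and 351 for metformin mice 1 and 2, 237 to 276 for metformin mice 3 to 6, and 238 to 338 for the CCl4 mice. Over the named genes 27.6% were called higher and 19.7% lower, which is the background for the marker counts. Of the 12 hepatocyte markers all were tested, 0 were called higher and 2 lower, and their summed level (in multiples of the 75th percentile) was 8123 to 10586 in metformin plus CCl4 livers and 9169 to 11260 in CCl4 livers. Of the 8 neutrophil markers 6 were lower, with summed levels of 9.48 to 44.4 in metformin plus CCl4 livers and 33.6 to 69.4 in CCl4 livers. Of the 9 stellate and myofibroblast markers 6 were lower, with 10.5 to 18.6 in metformin plus CCl4 livers and 17.4 to 28.0 in CCl4 livers. Of the 12 macrophage and monocyte markers 5 were lower, with 70.6 to 130.3 in metformin plus CCl4 livers and 102.9 to 130.2 in CCl4 livers. Of the 7 endothelial markers 3 were lower, with 51.1 to 85.9 in metformin plus CCl4 livers and 73.2 to 88.6 in CCl4 livers. Of the 6 cholangiocyte markers 1 was higher and 3 were lower, with 2.13 to 10.6 in metformin plus CCl4 livers and 6.38 to 13.1 in CCl4 livers. Of the 7 lymphocyte markers tested 0 were called, with 27.7 to 50.7 in metformin plus CCl4 livers and 34.4 to 46.5 in CCl4 livers, and Cd8a, Cd79a, Klrb1c and Ncr1 were too dim to be kept. The part of these cell types in the results on proteasome genes was not tested, and in whole liver fewer cells of a type and less RNA per cell cannot be told apart.

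The proteasome genes did not move together. With metformin 9 of the 39 tested genes were called higher, 9 were called lower and 21 were not called. Over the 14531 named genes, 47.4% were called, 27.6% of all being higher and 19.7% lower, so the share of called proteasome genes, 46.2%, was near that background. Their median difference was 0.09, beside 0.10 over all features and 0.07 over the named genes. The differences ran from -0.90 for Psme4 to 0.63 for Psma4. In 12 genes every metformin mouse was above every CCl4 mouse and in 8 every metformin mouse was below, where 21.8% and 14.1% of the named genes showed these patterns and 35.9% showed either.

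Proteasome genes varied over a narrower range than the named genes as a whole. Their differences had an SD of 0.35, against 0.67 over the named genes, and 2 of 39 (5.13%), Psma4 and Psme4, differed by more than 1.5-fold with a call, against 26.9% of the named genes. The spread within a group was also narrower: the median SD over mice was 0.12 in the metformin plus CCl4 group and 0.078 in the CCl4 group for the proteasome genes, against 0.21 and 0.20 for the named genes. The probes of the proteasome genes were also brighter, with a median level of 4.95 in metformin plus CCl4 livers and 4.91 in CCl4 livers, against 0.76 and 0.69 for the named genes, and the part of brightness in the narrower spread was not tested.

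All these directions are relative to the 75th percentile of each array. Scaling the arrays to the 7 spike-in controls put the median of all features at -0.42 in place of 0.10, and the proteasome genes went with it, to a median of -0.43 with 0 called higher and 18 called lower. Spike-in scaling shifts every feature of an array by 1 amount, so it does not alter how the proteasome genes lie relative to the other features. With quantile normalization, which the authors' own table also used, 6 proteasome genes were called higher and 13 lower, so that 31.6% of the calls were higher, against 50% with the 75th percentile.

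**Figure D1:**
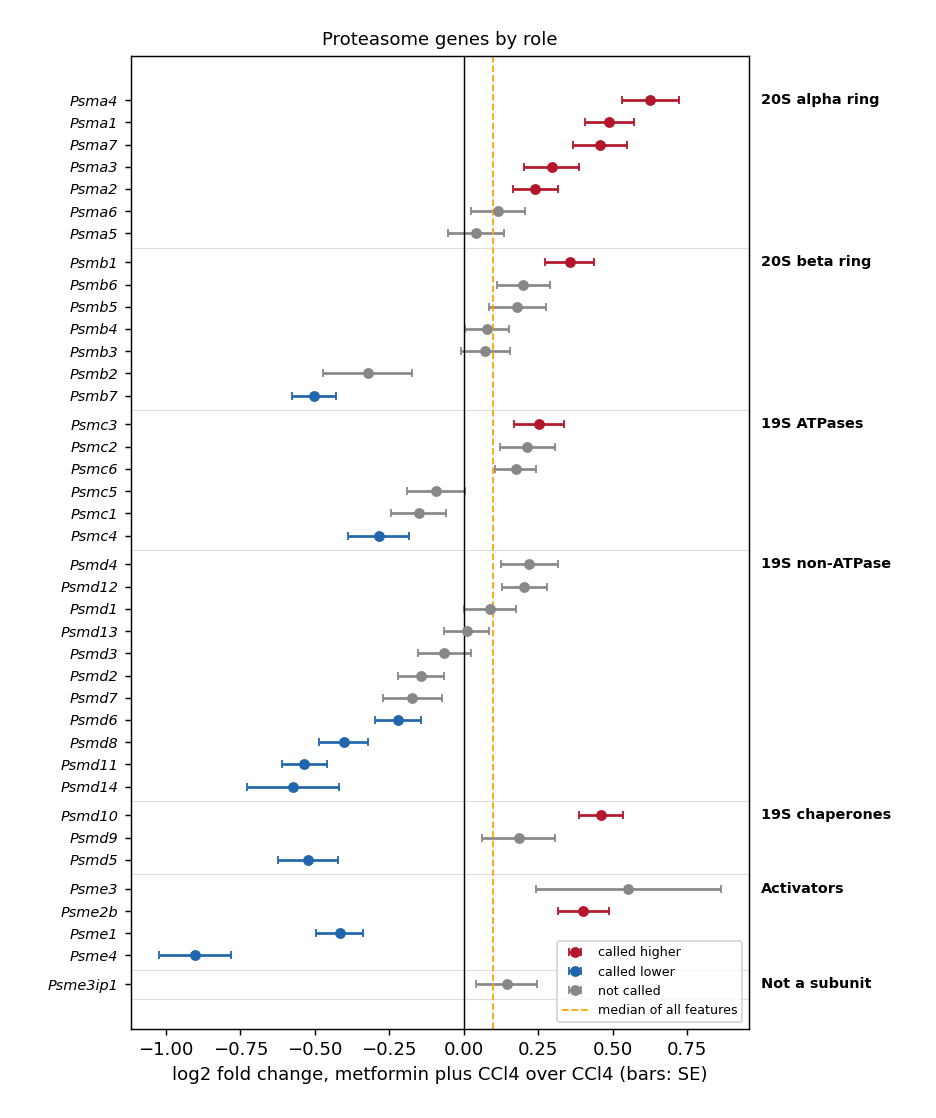
Difference on the log2 scale (metformin plus CCl4 minus CCl4, x axis) of the 39 tested proteasome genes, grouped by role, with bars for the standard error; red points were called higher, blue points lower and grey points were not called in limma (6 metformin plus CCl4 and 4 CCl4 mice). The 7 alpha ring genes lie right of 0, with 5 of them called, and 4 of the 11 non-ATPase genes of the cap were called lower; the dashed line marks the median of all features, 0.10, and scaling to the spike-ins moves all points left by about the same distance as that line.

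Most alpha ring genes were higher with metformin. Of the 7 tested, Psma1, Psma2, Psma3, Psma4 and Psma7 rose relative to the 75th percentile, 0 fell, and Psma5 and Psma6 were not called; under spike-in scaling 0 were called higher. Among the named genes 27.6% were called higher. The count fell to 3 with slide row as a covariate, median scaling or quantile normalization, and to 2 with the first slide row alone. The median difference was 0.30. Alpha subunits form the outer rings of the core, whose ends close the entry to the chamber, and the alpha ring is the template on which the beta subunits assemble.

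Psma4 had the largest difference among the proteasome genes called higher. Its level was 4.13 at the lowest, 4.31 at the median and 4.47 at the highest in the 6 metformin plus CCl4 livers, against 3.88, 3.63, 3.56 and 3.72 in CCl4 mice 1 to 4. The groups did not overlap. The difference was 0.63 ± 0.096 (SE), or 1.54-fold, with an adjusted p of 0.00056. Its second probe gave 0.53 ± 0.10.

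Psma1 ranged from 4.96 to 5.16 in metformin plus CCl4 livers, with a median of 5.07, against 4.50, 4.54, 4.54 and 4.74 in the CCl4 livers. It was 1.40-fold higher with metformin (0.49 ± 0.083, adjusted p 0.00099) and the groups did not overlap. Psma7 ranged from 6.03 to 6.34 in metformin plus CCl4 livers, with a median of 6.19, against 5.70, 5.82, 5.80 and 5.60 in CCl4 livers, a difference of 0.46 ± 0.091 (adjusted p 0.0023). Here too the groups were apart, and in the metformin group mice 1 and 2 had the lowest values.

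Smaller rises were seen for Psma3 and Psma2. Psma3 lay between 6.26 and 6.64 in metformin plus CCl4 livers (median 6.55), against 6.17, 6.16, 6.23 and 6.25 in CCl4 livers, a difference of 0.30 ± 0.092 (adjusted p 0.024). Psma2 lay between 6.33 and 6.53 in metformin plus CCl4 livers (median 6.41), against 6.14, 6.17, 6.28 and 6.13 in CCl4 livers, a difference of 0.24 ± 0.076 (adjusted p 0.024). The groups were apart in both genes, but by little: when only the first slide row was compared, with 2 metformin mice, the differences were 0.12 for Psma3 (adjusted p 0.42) and 0.16 for Psma2 (adjusted p 0.29), and neither was called. Over the 21 alternative analyses that were run, the call was kept in 12 for Psma3 and 11 for Psma2. Psma5 (0.04 ± 0.094) and Psma6 (0.12 ± 0.091) had overlapping groups. Psma8, which replaces an alpha subunit in the testis, was not well above background on any of the 10 arrays.

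Promoter sequences are shown for 3 of the raised alpha ring genes because each holds the letters CCAAT, the core of the box bound by NF-Y, in the 250 bases before the start of its transcript. The sequences are from RefSeq (GRCm38.p6), written 5′ to 3′ on the strand of the gene and ending at the base before the start, with CCAAT or its reverse complement ATTGG in capitals.

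Psma1 (chr7:114276117-114276366, minus strand): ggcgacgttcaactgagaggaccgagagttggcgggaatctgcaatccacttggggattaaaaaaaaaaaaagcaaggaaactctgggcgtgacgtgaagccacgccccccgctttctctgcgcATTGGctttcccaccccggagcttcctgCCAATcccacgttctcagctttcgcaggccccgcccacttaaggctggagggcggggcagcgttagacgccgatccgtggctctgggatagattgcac

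Psma3 (chr12:70974373-70974622, plus strand): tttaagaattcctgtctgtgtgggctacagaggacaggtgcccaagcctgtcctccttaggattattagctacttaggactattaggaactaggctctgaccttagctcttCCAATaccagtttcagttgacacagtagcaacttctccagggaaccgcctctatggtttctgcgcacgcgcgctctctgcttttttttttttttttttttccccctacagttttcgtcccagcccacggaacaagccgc

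Psma7 (chr2:180042465-180042714, minus strand): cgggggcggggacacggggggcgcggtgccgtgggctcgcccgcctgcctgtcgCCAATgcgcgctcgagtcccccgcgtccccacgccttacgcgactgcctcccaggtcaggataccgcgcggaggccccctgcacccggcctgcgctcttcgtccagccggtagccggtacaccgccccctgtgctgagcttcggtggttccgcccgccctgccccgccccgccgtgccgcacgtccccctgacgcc

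Psma2 also holds CCAAT in this window, whereas Psma4 does not. Of the alpha ring genes not called, Psma6 holds it in its window at chr12:55383972-55384221 but not in its other window, and Psma5 does not hold it. The letters are common: of 27025 genes with a promoter in RefSeq, 37.5% hold them within 250 bases on either strand. Among the proteasome genes tested, 33 had a promoter in the table and 13 of these (39.4%) held CCAAT. By call, it was in 5 of 7 genes called higher (Psma1, Psma2, Psma3, Psma7 and Psmd10), 1 of 8 called lower (Psmd14) and 7 of 18 not called. A match describes the sequence and does not show that NF-Y binds there.

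The beta ring genes differed among themselves. Of the 7 tested, 1 was higher, 1 was lower and 5 were not called, with a median difference of 0.08. Of the 3 subunits with a proteolytic site, Psmb7, which cuts after basic residues, was lower, and Psmb5 and Psmb6 were not called.

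Psmb7 ranged from 4.46 to 4.63 in metformin plus CCl4 livers, with a median of 4.51, against 5.04, 5.09, 4.93 and 5.05 in CCl4 livers. The groups were well apart and the spread within each was 0.066 (SD, n = 6 and n = 4). The difference was -0.50 ± 0.074, so the level was 1.42-fold higher in CCl4 livers (adjusted p 0.00043). It was called lower in each of 21 alternative analyses, with differences between -1.02, under spike-in scaling, and -0.46.

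Psmb5, the subunit with chymotrypsin-like activity that the inhibitor bortezomib targets, had 7.16 and 7.03 in metformin mice 1 and 2 and 7.35 to 7.41 in metformin mice 3 to 6, against 7.07, 7.11, 7.19 and 7.05 in the CCl4 livers. Metformin mice 3 to 6, on the second slide row, were above all CCl4 mice, while mouse 1 lay among the CCl4 mice and mouse 2 just below them. The difference, 0.18 ± 0.095, was not called (adjusted p 0.15). Psmb6, with caspase-like activity, had 6.64 and 6.57 in metformin mice 1 and 2 and 6.77 to 6.91 in mice 3 to 6, against 6.51, 6.61, 6.61 and 6.48 in CCl4 livers (0.20 ± 0.089, adjusted p 0.091). Of the metformin mice only mouse 2 lay among the CCl4 mice.

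The promoters of Psmb5 and Psmb6 hold the letters TGACNNNGC, the core of the antioxidant response element to which NRF1 and NRF2 bind. That of Psmb5 is shown from the same source, with the match in capitals.

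Psmb5 (chr14:54617996-54618245, minus strand): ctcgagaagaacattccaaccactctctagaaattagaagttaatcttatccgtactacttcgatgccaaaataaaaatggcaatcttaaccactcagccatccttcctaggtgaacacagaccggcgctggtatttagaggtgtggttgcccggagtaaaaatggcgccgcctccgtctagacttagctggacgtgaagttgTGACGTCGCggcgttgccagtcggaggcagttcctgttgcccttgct

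The match starts 47 bases before the transcript in Psmb5. The element was found in 5 of 33 proteasome genes (15.2%: Psmb5, Psmb6, Psmc6, Psmd9 and Psmd12), against 11.5% of all genes. These 5 genes were not called, nor were 18 of the 33 in all. Their differences were 0.18 for Psmb5, 0.20 for Psmb6, 0.17 for Psmc6, 0.18 for Psmd9 and 0.20 for Psmd12. The part of the element in these differences was not tested.

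Of the beta subunits without a proteolytic site, Psmb1 was higher. It lay between 4.83 and 5.10 in metformin plus CCl4 livers (median 5.01), against 4.63, 4.76, 4.53 and 4.62 in CCl4 livers. The groups were apart and the difference was 0.36 ± 0.083 (adjusted p 0.0056). Psmb3 (0.07 ± 0.083) and Psmb4 (0.08 ± 0.074) overlapped between groups. Psmb2 was 2.17 and 2.09 in metformin mice 1 and 2 and 1.46 to 1.83 in metformin mice 3 to 6, against 2.08 to 2.14 in CCl4 livers, and its difference of -0.32 ± 0.15 was not called (adjusted p 0.10). Psmb11, a subunit of the thymus, was not well above background on any array.

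**Figure D2:**
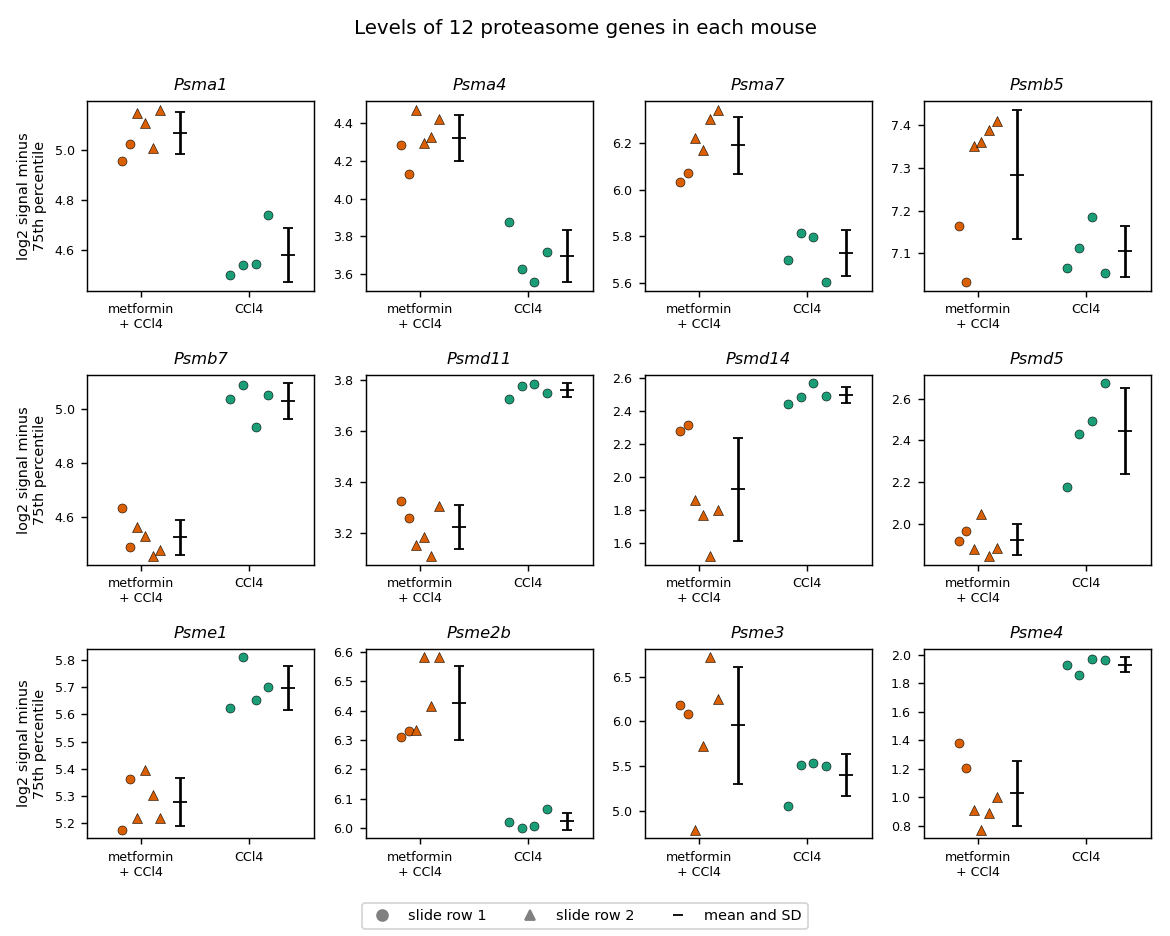
Level of 12 proteasome genes (y axis, log2 intensity minus the 75th percentile of the array, with a separate scale in each panel) in each of the 6 metformin plus CCl4 mice (orange) and 4 CCl4 mice (green), with the mean and SD of each group in black; circles are arrays on the first slide row and triangles on the second. The groups lie apart for 10 of the 12 genes and overlap for Psmb5 and Psme3, and for Psmb5 and Psmd14 the 2 metformin circles lie nearer the CCl4 mice than the triangles do. The 12 genes were picked for display and all but Psmb5 and Psme3 had been called, so the count of 10 reflects that choice. Of all 39 tested genes 12 were apart upward and 8 downward, beside 21.8% and 14.1% of the named genes.

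Of the 6 ATPases of the cap, the motor that unfolds substrates, 1 was higher, 1 was lower and 4 were not called, with a median difference of 0.04. Psmc3 lay between 6.84 and 7.16 in metformin plus CCl4 livers (median 7.01), against 6.78, 6.81, 6.73 and 6.67 in CCl4 livers, a difference of 0.25 ± 0.083 (adjusted p 0.029). The groups were apart by little, and the second probe of Psmc3 gave -0.11, the opposite sign, without a call. The call of Psmc3 was kept in 7 of 21 alternatives and lost in 13, and under spike-in scaling the difference was -0.27. Psmc4 lay between 4.21 and 4.59 in metformin plus CCl4 livers (median 4.43), against 4.70, 4.90, 4.52 and 4.71 in CCl4 livers, a difference of -0.29 ± 0.10 (adjusted p 0.042). Its groups overlapped, and the call was lost when any of 7 of the 10 mice was left out. Psmc2 (0.21 ± 0.092) and Psmc6 (0.17 ± 0.069) had every metformin mouse above every CCl4 mouse without passing the threshold, with adjusted p of 0.080 and 0.061. Psmc1 (-0.15 ± 0.093) and Psmc5 (-0.09 ± 0.097) overlapped. In a test over probes the dimmer probe of Psmc1 was lower (-0.32 ± 0.071) and that of Psmc2 higher (0.27 ± 0.086), both past the threshold.

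Among the non-ATPase subunits of the cap the calls were all downward. Of the 11 tested, 4 fell (Psmd6, Psmd8, Psmd11 and Psmd14), 0 rose and 7 were not called, with a median difference of -0.14. The share called was 36.4%, below the 47.4% of the named genes called in either direction. Of the named genes 19.7% were called lower. All 4 belong to the lid, the part that removes the ubiquitin. So do Psmd3, Psmd7, Psmd12 and Psmd13, which were not called. Sem1, a lid subunit with a name outside the rule, was higher (0.68 ± 0.094). Fewer non-ATPase genes were called lower with slide row as a covariate, the first slide row alone or a replicate block. More were called lower with quantile normalization or spike-in scaling, and some were called higher with normexp background correction. The difference between the alpha ring and the cap subunits was not itself tested, since genes of 1 complex are not replicates.

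Psmd11, a scaffold subunit of the lid that contacts the core, ranged from 3.11 to 3.33 in metformin plus CCl4 livers, with a median of 3.22, against 3.72, 3.78, 3.78 and 3.75 in CCl4 livers. The groups were well apart, with an SD of 0.087 in the metformin group and 0.027 in the CCl4 group. The difference was -0.54 ± 0.075, the level being 1.45-fold higher in CCl4 livers (adjusted p 0.00033). It was called lower in each of the 21 alternatives.

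Psmd14, the deubiquitinase of the lid, had 2.28 and 2.32 in metformin mice 1 and 2 and 1.52 to 1.86 in metformin mice 3 to 6, against 2.45, 2.48, 2.57 and 2.49 in CCl4 livers. All metformin mice were below all CCl4 mice, but those of the first slide row by much less. The difference was -0.57 ± 0.15 (adjusted p 0.012) and became -0.20 (adjusted p 0.20) once slide row was added to the model.

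Psmd8 lay between 4.17 and 4.40 in metformin plus CCl4 livers (median 4.27), against 4.74, 4.63, 4.76 and 4.59 in CCl4 livers, a difference of -0.40 ± 0.082 (adjusted p 0.0028) with the groups apart. Psmd6 lay between 3.79 and 4.02 in metformin plus CCl4 livers (median 3.86), against 4.07, 4.16, 4.16 and 4.07 in CCl4 livers, a difference of -0.22 ± 0.076 (adjusted p 0.036). Both code for structural subunits of the lid. The fall of Psmd6 was the smaller one, and with slide row as a covariate it was -0.12 and not called; its call was lost in 12 of 21 alternatives.

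The other cap subunits were not called. Psmd4, a ubiquitin receptor, had 6.29 and 6.20 in metformin mice 1 and 2 and 6.41 to 6.55 in mice 3 to 6, against 6.07, 6.29, 6.25 and 6.13 in CCl4 livers (0.22 ± 0.095, adjusted p 0.081). Psmd12 had its groups apart with a difference of 0.20 ± 0.077, just outside the threshold (adjusted p 0.051), and its dimmer probe was past it in a test over probes (0.44 ± 0.12). The scaffolds of the base, Psmd1 (0.09 ± 0.087) and Psmd2 (-0.14 ± 0.078), and the lid subunits Psmd3 (-0.06 ± 0.090), Psmd7 (-0.17 ± 0.099) and Psmd13 (0.01 ± 0.077) overlapped between groups.

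**Figure D3:**
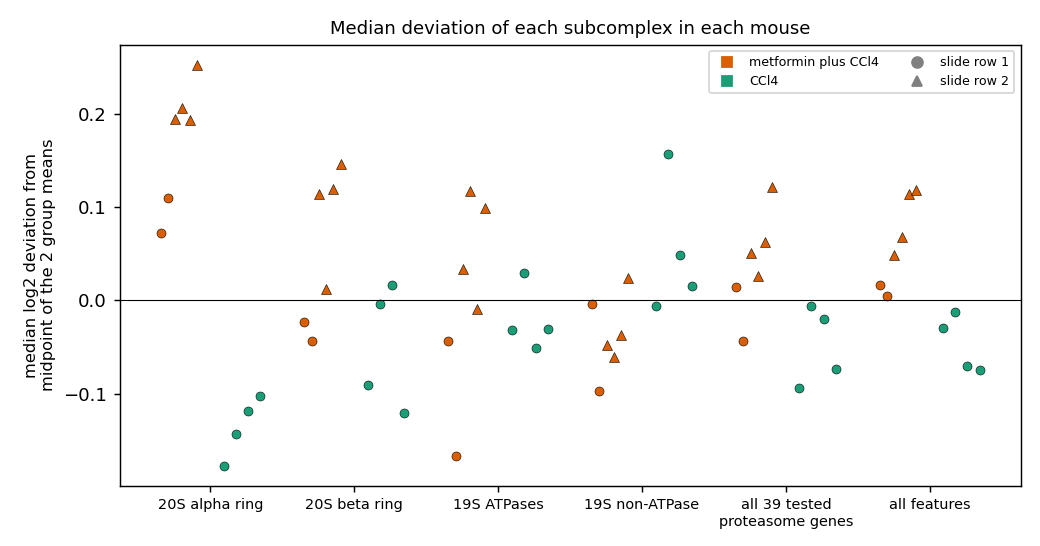
Median deviation of the genes of each subcomplex from the midpoint of the 2 group means (y axis, log2 scale) in each metformin plus CCl4 mouse (orange) and CCl4 mouse (green); circles are arrays on the first slide row and triangles on the second. For the alpha ring the 6 metformin plus CCl4 mice lie between 0.07 and 0.25 and the 4 CCl4 mice between -0.18 and -0.10. The groups overlap for the beta ring, the ATPases and the non-ATPase subunits. They lie apart for the median of all features too, though by less. There the metformin plus CCl4 mice lie between 0.0052 and 0.12 and the CCl4 mice between -0.074 and -0.012.

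The chaperones that assemble the base moved in different directions. Psmd10, also known as gankyrin, ranged from 0.82 to 0.997 in metformin plus CCl4 livers, with a median of 0.87, against 0.34, 0.39, 0.48 and 0.49 in CCl4 livers. The groups did not overlap, and the level was 1.38-fold higher with metformin (0.46 ± 0.074, adjusted p 0.00070). Its second probe gave 0.30 ± 0.11 and missed the threshold (adjusted p 0.053 over probes). Psmd5 ranged from 1.85 to 2.05 in metformin plus CCl4 livers, with a median of 1.90, against 2.18, 2.43, 2.50 and 2.67 in CCl4 livers. Here the CCl4 mice were spread more widely (SD 0.21, n = 4) than the metformin mice (SD 0.074, n = 6), all of which were lower, with a difference of -0.52 ± 0.10 (adjusted p 0.0021). Psmd9 (0.18 ± 0.12) overlapped between groups.

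The activators, which bind the ends of the core in place of the cap, held the largest fall among the proteasome genes. Psme4 codes for PA200, a nuclear activator. Its level was 1.38 and 1.21 in metformin mice 1 and 2 and 0.77 to 1.001 in metformin mice 3 to 6, against 1.93, 1.86, 1.97 and 1.96 in CCl4 livers. All metformin mice were below all CCl4 mice, with a difference of -0.90 ± 0.12, or 1.87-fold higher in CCl4 livers (adjusted p 0.00026). The second kept probe of Psme4 gave -0.15 and was not called, so the size of the fall depends on the probe.

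Psme1 codes for the alpha subunit of PA28, a ring that interferon gamma induces together with the immunoproteasome. It ranged from 5.18 to 5.40 in metformin plus CCl4 livers (median 5.26), against 5.62, 5.81, 5.65 and 5.70 in CCl4 livers. The groups were apart and the difference was -0.42 ± 0.080 (adjusted p 0.0020), which was called lower in each of the 21 alternatives. Psme2b, a near copy of the gene for the beta subunit Psme2, was higher: 6.31 to 6.58 in metformin plus CCl4 livers (median 6.37), against 6.02, 6.00, 6.01 and 6.07 in CCl4 livers, a difference of 0.40 ± 0.085 (adjusted p 0.0035). Since Psme2 had no matched probe and the copies are alike in sequence, the probe of Psme2b cannot be assigned to 1 of the 2 genes with certainty. Psme3, the nuclear PA28 gamma, varied more than any other proteasome gene, with 6.19, 6.08, 4.79, 5.72, 6.72 and 6.25 in metformin mice 1 to 6, against 5.06, 5.52, 5.54 and 5.51 in CCl4 mice 1 to 4. The lowest value of all was that of metformin mouse 3, the groups overlapped, and the difference of 0.55 ± 0.31 was not called (adjusted p 0.17).

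The promoters of Psmd11 and Psme4 are shown because both genes fell in every alternative and both hold CCGGAAG, a box bound by ETS factors. The search covered the 250 bases before the start, and capitals mark the match or its reverse complement CTTCCGG. Psme1 also fell in every alternative and does not hold the box, and Psmb7 had no promoter sequence to search.

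Psmd11 (chr11:80428365-80428614, plus strand): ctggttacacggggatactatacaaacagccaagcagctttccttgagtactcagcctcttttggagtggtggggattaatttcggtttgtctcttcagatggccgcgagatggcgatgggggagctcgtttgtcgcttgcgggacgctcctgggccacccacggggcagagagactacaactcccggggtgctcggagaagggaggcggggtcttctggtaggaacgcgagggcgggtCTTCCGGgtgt

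Psme4 (chr11:30771525-30771774, plus strand): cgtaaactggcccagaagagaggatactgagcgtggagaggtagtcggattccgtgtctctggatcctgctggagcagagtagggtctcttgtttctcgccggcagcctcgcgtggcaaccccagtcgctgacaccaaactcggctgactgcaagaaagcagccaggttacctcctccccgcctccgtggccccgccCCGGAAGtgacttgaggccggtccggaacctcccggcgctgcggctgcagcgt

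This box was in 11 of the 33 proteasome genes with a promoter (33.3%), against 7.83% of all genes. It was in 0 of 7 genes called higher, 3 of 8 called lower (Psmd6, Psmd11 and Psme4) and 8 of 18 not called. It was found in 3 of 5 ATPase genes and 5 of 9 non-ATPase genes but in 1 of 7 alpha ring genes and 0 of 4 beta ring genes. These are counts of letters in a window and were not tested, and no match says only that these letters are not there.

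The members that are not subunits gave little. Psme3ip1 was not called (0.14 ± 0.10), and Psmc3ip was well above background on 2 of 6 metformin plus CCl4 arrays and 0 of 4 CCl4 arrays and was not tested.

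The slide row separated the metformin mice in many proteasome genes. In 25 of 39 (64.1%) the 2 mice of the first row and the 4 of the second did not overlap, against 25.7% of the named genes, although the median size of the row difference was alike (0.17 in both). With slide row as a covariate 5 proteasome genes were called higher and 8 lower, and with the first row alone 5 higher and 4 lower. Whether the rows differ for a reason of the array or because of the mice on them cannot be told apart.

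Of the 18 called genes, Psmb7, Psmd11, Psme1 and Psme4 were called in the same direction in each of 21 alternative analyses. Psma1, Psma4 and Psmd10 were called higher in each of these except spike-in scaling, where they were at -0.03, 0.10 and -0.06. The calls of the other 11 were lost in at least 1 alternative besides that one. Of 10 proteasome genes with several kept probes, 6 had probes that differed in call and 0 had probes called in opposite directions. In the authors' deposited table, which is limited to probes past their own filter of a 1.5-fold change and a false discovery rate, 4 of the 39 tested proteasome genes were listed (10.3%), against 15.1% of the named genes tested: the group means in the authors' deposited table differed by -0.61 for Psmb7, -0.63 for Psmd11, -0.59 for Psmd5 and -0.95 for Psme4.

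**Figure D4:**
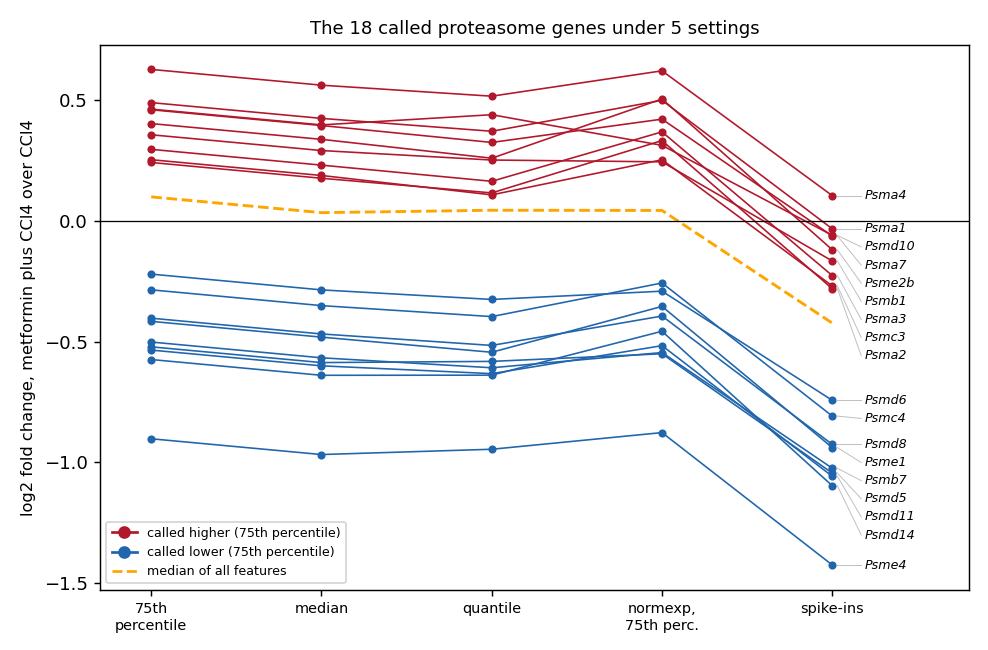
Difference (metformin plus CCl4 minus CCl4, log2 scale, y axis) of the 18 called proteasome genes under 5 ways of correcting or scaling the arrays, with the median of all features dashed. The 9 genes called higher (red) and the 9 called lower (blue) stay on their sides of 0 under the first 4 settings; under spike-in scaling the median of all features lies at -0.42 and Psma4 alone of the red genes stays above 0.

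The other genes of the pathway, 39 on lists of partners, were all tested, and 12 were higher, 11 lower and 16 not called, where 27.6% of the named genes were higher, 19.7% lower and 47.4% called in either direction. Of the 5 genes for assembly of the core, 3 were higher and 0 lower, with a median of 0.53. Pomp, which guides the maturation of the beta ring, was 5.10 to 5.64 in metformin plus CCl4 livers (median 5.53), against 4.79, 4.62, 4.66 and 4.72 in CCl4 livers, a difference of 0.74 ± 0.12 (adjusted p 0.00070). Psmg1 (0.66 ± 0.092) and Psmg3 (0.53 ± 0.11), chaperones of the alpha ring named here after their values were seen, were also higher, while Psmg2 (0.18 ± 0.11) and Psmg4 (0.03 ± 0.092) were not called. In Pomp, Psmg1 and Psmg3 every metformin mouse was above every CCl4 mouse.

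Of the immunoproteasome genes, whose products replace the proteolytic beta subunits under interferon gamma, Psmb10 was higher, at 5.24 to 5.56 in metformin plus CCl4 livers (median 5.48), against 5.15, 5.03, 4.97 and 5.06 in CCl4 livers (0.40 ± 0.086, adjusted p 0.0037). Psmb8 (0.03 ± 0.12) and Psmb9 (-0.27 ± 0.15) were not called. Of the 11 interferon response genes tested, 2 were higher and 3 lower, beside 27.6% and 19.7% of the named genes. Their summed levels were 25.8 to 45.9 in metformin plus CCl4 livers and 33.6 to 39.3 in CCl4 livers. The part of the interferon response genes in these differences was not tested.

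Among 16 genes for proteins that bind the proteasome or bring substrates to it, 3 were higher and 9 lower, with a median of -0.28. The background was 27.6% higher and 19.7% lower over the named genes. Sem1, a small subunit of the lid with a name outside the rule, was higher: 6.46 to 6.81 in metformin plus CCl4 livers (median 6.71), against 6.01, 6.02, 5.98 and 5.89 in CCl4 livers, a difference of 0.68 ± 0.094 (adjusted p 0.00032). Its difference had the opposite sign to those of the 4 lid genes that fell. Ddi2, the protease that cleaves NRF1, had the largest fall: 2.95 to 3.44 in metformin plus CCl4 livers (median 3.30), against 4.24, 4.37, 4.73 and 4.02 in CCl4 livers, a difference of -1.06 ± 0.15 (adjusted p 0.00030), and its second probe gave -1.02. Adrm1, a ubiquitin receptor of the cap, fell by 0.28 (SE 0.087, adjusted p 0.024). The 2 deubiquitinases that dock on the cap, named after their values were seen, differed in direction, with Uchl5 higher (0.46 ± 0.083) and Usp14 lower (-0.29 ± 0.090).

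Of 4 genes that supply ubiquitin or activate it, 2 were higher and 2 lower, beside 27.6% higher and 19.7% lower over the named genes. The polyubiquitin gene Ubb was lower, at 7.90 to 8.15 in metformin plus CCl4 livers (median 7.97), against 8.27, 9.04, 9.10 and 8.78 in CCl4 livers (-0.82 ± 0.15, adjusted p 0.0016), but its second probe gave 0.13 and was not called. Rps27a, in which ubiquitin is fused to a ribosomal protein, was higher (0.51 ± 0.091). Of the activating enzymes Uba6 was higher (0.64 ± 0.22, adjusted p 0.038, with groups that overlapped) and Uba1 lower (-0.35 ± 0.090). The call of Uba6 was lost in 14 of 21 alternatives, and its second probe gave 0.046. The second probe of Uba1 gave 0.13, the opposite sign, and was not called. Ubb, Rps27a and Uba1 were named after their values were seen.

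Of 11 genes for factors that act on proteasome gene expression, 3 were higher (27.3%) and 0 lower. The share higher was near the 27.6% of the named genes, of which 19.7% were lower. Nfe2l2, which codes for NRF2, was 2.81 to 3.90 in metformin plus CCl4 livers (median 3.17), against 1.67, 1.30, 1.55 and 1.57 in CCl4 livers, a difference of 1.76 ± 0.20 (adjusted p 0.00011), or 3.38-fold. Nfe2l1 was higher by 0.38 ± 0.12 (adjusted p 0.032), with -1.44 to -1.05 in metformin plus CCl4 livers and -1.32, -1.88, -1.63 and -1.42 in CCl4 livers, so that the groups overlapped. This call was kept in 8 of 21 alternatives, lost in 12, and under spike-in scaling the difference was -0.15. Nfyc, a subunit of NF-Y named after its values were seen, was higher by 0.39 ± 0.097, with a second probe at -0.17 that was not called, while the other NF-Y subunits Nfya (-0.13 ± 0.17) and Nfyb (-0.07 ± 0.092) were not called.

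**Figure D5:**
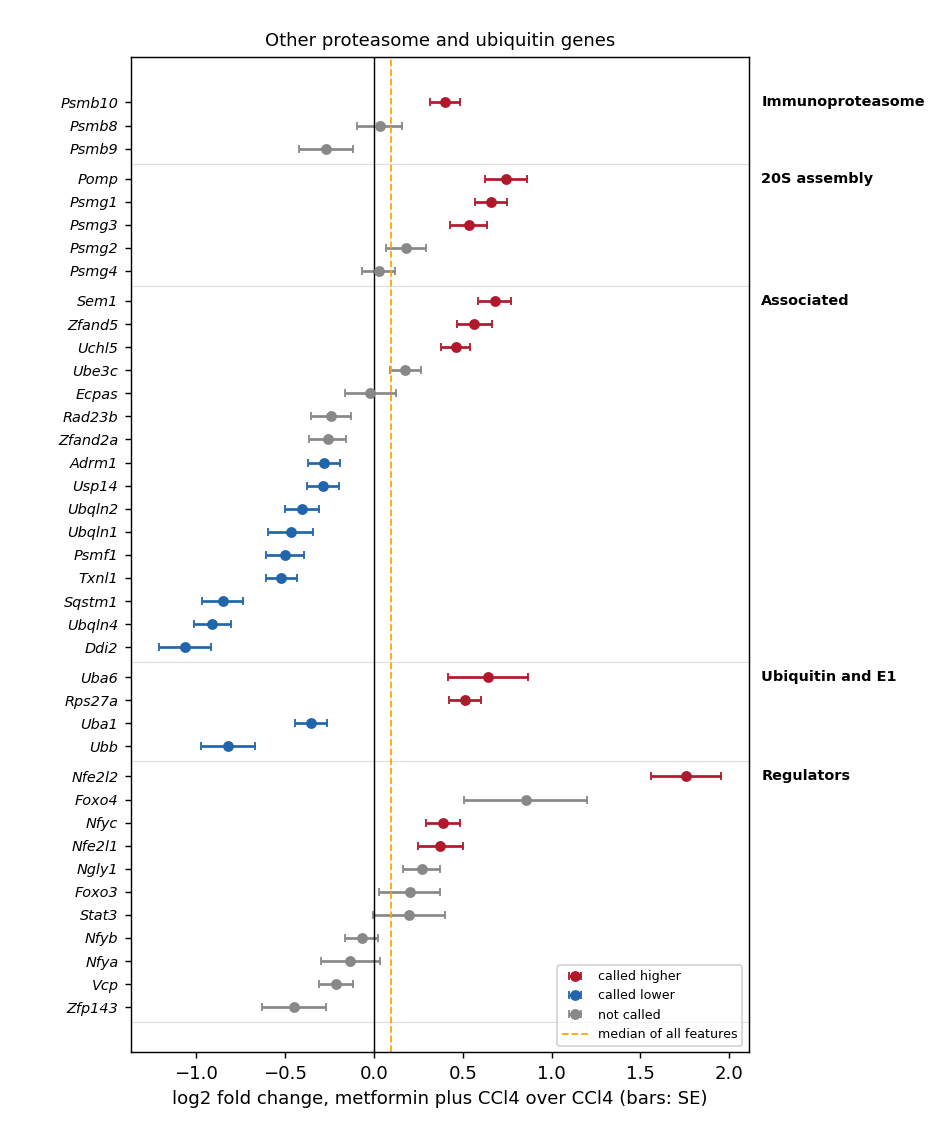
Difference on the log2 scale (metformin plus CCl4 minus CCl4, x axis) of 39 other genes of the proteasome and ubiquitin pathway, with bars for the standard error; red points were called higher, blue points lower and grey points were not called (6 metformin plus CCl4 and 4 CCl4 mice). Nfe2l2 lies furthest to the right at 1.76 and Ddi2 furthest to the left at -1.06, and 3 of the 5 genes for core assembly were called higher; under spike-in scaling 1 of the 39 was called higher and 20 lower.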

How the data were processed

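Spot intensities (linear scale) in the deposited files came from Agilent Feature Extraction 10.7.3.1, which had subtracted background and spatial trend, per the file headers; arrays were not yet scaled to each other. Here log2 processed intensities were used after subtracting each array's own 75th percentile, taken across the 59305 spots that are no controls. Probes had to be well above background on 75% or more of the arrays in 1 of the groups, which left 29575 of 55681, and a gene was read from its brightest probe over all arrays. Names (28664 probes) and promoters are those of RefSeq, assembly GRCm38.p6, matched by accession, because the grid of the array was built on mm9. On each array 51.2% to 54.9% of probes were well above background and 0 spots were saturated. The number of arrays limits the precision.

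Groups and mouse numbers came from the sample titles. limma 3.58.1 (R 4.3.3; lmFit and eBayes, two-sided) was fitted to all 10 arrays without a covariate, with Benjamini-Hochberg adjustment over 22184 features. In simulated data of that size it found 62 of 100 genes shifted by 1 log2 unit and 22 of 100 shifted by 0.5, with 3 false calls. No other features were shifted there, whereas 45.4% of all features were called in the real data. The simulated figures therefore do not give the power or the error rate of the reported analysis. Mice with the same number in both groups did not deviate together (correlations of -0.14, -0.12, 0.086 and -0.0034 for numbers 1 to 4), so no block was used.

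A second deposited file gives log2 values for 4595 probes, quantile-normalized and filtered by false discovery rate and fold change, per its first line, with the test unnamed. Each column followed its own array (r at least 0.9997 across probes), which settles scale and direction, and column medians were 7.76 to 7.88. Any further centring is unknown.

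Alternatives were normexp background correction (on median intensities, as the files hold no mean intensity), other scalings, filters and probe rules, slide row, array weights, a replicate block and leaving out each mouse. The members and lists were chosen with earlier results of these data known, and 3 genes of the pathway lists are not reported here or counted in them. Genes were named by rule: in each role the 2 largest called rises and falls, a set of subunits with known functions, and in each pathway list the largest called rise and fall. Other members are given to account for all of them.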

Additional observations from a re-analysis of the deposited data

Results flagged for a closer look

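Of 156 groups of mice examined, each a tested proteasome or pathway gene in 1 of the 2 treatments, 4 had a mouse far from the rest of its group, 2.56% of them, where chance alone sets apart about 1 in 20. For Psme3, CCl4 mouse 1 was at 5.06, below the other CCl4 mice, which lay between 5.51 and 5.54. For Uba1, CCl4 mouse 3 was at 5.81, below the other CCl4 mice, which lay between 6.08 and 6.12. For Ubqln2, CCl4 mouse 1 was at -0.13, below the other CCl4 mice, which lay between 0.189 and 0.199. For Ngly1, metformin mouse 5 was at -1.55, below the other metformin mice, which lay between -1.29 and -1.16. The values are log2 intensities minus the 75th percentile of the array, and each rests on 1 probe and 1 mouse.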

How the results depend on the processing

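Of the proteasome genes, 9 were called higher and 9 lower in the analysis reported above, with a median difference of 0.09. The number called higher was 15 with normexp background correction, 5 with median scaling, 0 with scaling to spike-ins, 5 with slide row as a covariate, 5 with the first slide row alone and 4 with a replicate block. The number called lower was 18 with spike-ins, 13 with quantile normalization (6 higher), 4 with the first row alone and 5 with the replicate block. The median difference was 0.15 with normexp, 0.024 with median scaling, -0.023 with quantile normalization, -0.43 with spike-ins and 0.020 with slide row as a covariate or the first row alone. Under these settings, in the same order, the median of all features was 0.043, 0.034, 0.044, -0.42 and 0.049. The place of the proteasome genes relative to all features thus depended on the processing. Restricted to the 20S and 19S subunits, 7 were higher and 6 lower. For the alpha ring, where 5 were higher, the count was 3 with median scaling, quantile normalization, no filter on dim probes, slide row as a covariate or the replicate block, 2 with the first row alone and 0 with spike-ins. For the non-ATPase subunits, where 0 were higher and 4 lower, 2 were higher with normexp, 1 with the filter on all arrays and 1 with probes of a gene averaged, and the number lower was 7 with quantile normalization, 8 with spike-ins, 2 with slide row as a covariate and 1 with the first row alone or the replicate block. Over all named genes, with 4015 higher and 2869 lower, spike-ins gave 592 and 6288 (8.605% of calls higher, against 58.3%), the first row alone 2364 and 1863, and the replicate block 2599 higher. Of calls, 50.2% were higher with median scaling and 52.0% with quantile normalization. Of the pathway genes, with 12 higher and 11 lower, 1 was higher and 20 were lower with spike-ins, 6 were lower with the first row alone and 7 with the replicate block.

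Among genes called in at least 1 of the 2 analyses set side by side, the differences that changed sign did so with spike-ins: Psma1 to -0.033, Psma2 to -0.28, Psma3 to -0.23, Psma7 to -0.063, Psmb1 to -0.17, Psmb3 to -0.45, Psmb4 to -0.44, Psmc3 to -0.27, Psmd10 to -0.060, Psmd13 to -0.51, Psme2b to -0.12, Psmb8 to -0.49, Psmb10 to -0.12, Nfe2l1 to -0.15, Nfyc to -0.13, Rps27a to -0.0080 and Uchl5 to -0.062. Genes called in neither analysis changed sign as well, with spike-ins (Psma5 to -0.48 and Psmb5 to -0.34, for example) and with the first row alone (for example Psma5 to -0.016, Psmb2 to 0.020, Psmb3 to -0.057, Psmb5 to -0.0067 and Psmd1 to -0.023). Spike-in scaling moves every feature on an array by the same amount. The first row alone leaves 2 metformin mice. The cause of the other changes was not tested.

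Leaving out 1 mouse at a time gave 6 to 13 proteasome genes higher (13 without metformin mouse 2, 6 without CCl4 mouse 1), 7 to 9 lower and a median of 0.06 to 0.13. It gave 3 to 5 alpha ring genes higher and 0 lower, 0 to 2 non-ATPase genes higher and 3 to 4 lower, 10 to 12 pathway genes higher and 9 to 12 lower, and 3450 to 3901 named genes higher and 2395 to 2764 lower. The mouse numbers do not pair the animals, so the replicate block fits only a shared number. Array weights, and leaving out genes not well above background on all arrays, changed no call that had been made among the 18 proteasome genes. Signal over background limits the rest, since Psma8, Psmb11 and Psmc3ip were too dim to be tested.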

Other observations

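Other partners of the proteasome were named after their values were seen, so the number of falls among them reflects that choice. In the whole list of 16 partners 3 were higher and 9 lower, beside 27.6% and 19.7% of the named genes. Ecpas (-0.02 ± 0.15), Ube3c (0.18 ± 0.089) and Zfand2a (-0.26 ± 0.10) of that list were not called. Among the shuttle proteins that carry ubiquitinated substrates to the cap, Ubqln4 was -1.24 to -0.85 in metformin plus CCl4 livers (median -0.89), against -0.23, 0.06, -0.01 and -0.05 in CCl4 livers, a difference of -0.91 ± 0.10 (adjusted p 0.00012, limma), and Ubqln1 (-0.47 ± 0.13) and Ubqln2 (-0.40 ± 0.096) were lower as well. Rad23b (-0.24 ± 0.11), which also carries substrates, was not called, although its second, dimmer probe gave -0.58. Sqstm1, the autophagy receptor p62, was 3.02 to 3.39 in metformin plus CCl4 livers (median 3.0996), against 3.72, 4.06, 4.18 and 4.05 in CCl4 livers, a difference of -0.85 ± 0.11 (adjusted p 0.00028, limma). All metformin mice were below all CCl4 mice for Ubqln4, Ubqln1 and Sqstm1, and the groups overlapped for Ubqln2 through CCl4 mouse 1, which was at -0.13. Psmf1, the binding protein PI31 (difference -0.50 ± 0.11), and Txnl1, a thioredoxin that docks on the cap (difference -0.52 ± 0.086), were lower. Zfand5, which can activate the proteasome, was higher, with 2.82 to 3.19 in metformin plus CCl4 livers (median 2.94), against 2.29, 2.40, 2.57 and 2.40 in CCl4 livers (0.57 ± 0.099, adjusted p 0.0012, limma), and its dimmer second probe gave 0.28. Of the enzymes that process NRF1 on its way out of the endoplasmic reticulum, Ngly1 (0.27 ± 0.10) and Vcp (-0.21 ± 0.094) were not called, whereas Ddi2 was lower.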
